A study of Mus musculus with 45 samples.

Results

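Messenger RNA of 10 regulators of the integrated stress response was followed in mouse limb buds cultured with bisphenol A (BPA), a building block of plastics that acts on estrogen receptors. The 10 genes were Atf4, Atf5, Ddit3, Cebpb, Trib3, Ppp1r15a, Chac1, Sesn2, Ddit4 and Nupr1, each taken as the row of the deposited tables that carries its symbol, out of 36300 genes in all. All 10 were found, and all 10 passed the filter on low counts in every comparison. The lowest count of any of them in any library was 56 reads, for Nupr1.

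The libraries came from forelimb buds of CD1 embryos, an outbred mouse stock, taken on gestation day 13, pooled, and cultured with limbs of both sexes together. The 3 groups treated with 50 µM BPA, the 3 treated with 10 µM BPA and the 3 given the vehicle dimethyl sulfoxide were cultured for 3, 24 or 48 h, with 5 libraries in each of the 9 groups. Every group, vehicle included, had been in organ culture, so the vehicle groups are cultured limbs and not limbs taken straight from the embryo. Each of the 45 libraries held 17.54 to 27.12 M counts in genes (M for mega), and the limb bud genes Prrx1, Hoxd13 and Tbx5 were present in every library. No label tells if the 5 replicates were separate litters or days of culture. The p-values therefore reflect only the scatter among these libraries, part of which may be technical.

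In the integrated stress response, kinases that sense amino acid shortage, misfolded protein in the endoplasmic reticulum, heme shortage or double-stranded RNA phosphorylate the translation factor eIF2. Most protein synthesis then slows, while the mRNA of Atf4 is translated more, and the ATF4 protein switches on genes of amino acid supply and of feedback. In the skeleton, ATF4 is known for its part in osteoblast differentiation and in the growth plate. Since much of the control of ATF4 is exerted on translation, the level of its mRNA is only a partial measure of its activity.

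The promoters of all 10 genes were read from RefSeq on build GRCm38.p6, from 250 bases before to 50 bases after the start, because ATF4 and C/EBP proteins are known to bind a composite element in such genes. The element searched was TGATGNAA on both strands, and 3 of the 10 genes held it, Trib3, Chac1 and Nupr1, against 4.51% of 27025 genes. The cyclic AMP response element TGACGTCA stood in 1 of the 10, Ppp1r15a, against 2.03% of the 27025 genes. The ER stress element (CCAAT, 9 bases, CCACG) and the glucocorticoid response element (GNACA, 3 bases, TGTNC) were found in 0 of the 10, against 0.137% and 0.537% of the 27025 genes. The 4 windows with a match, which hold the letters the search found, are given in 80 bases each, 5′ to 3′ on the strand of the gene, with the match in capitals. The composite element lay on the opposite strand in Trib3, Chac1 and Nupr1, so the capitals there are its reverse complement. The Trib3 window lies at chr2:152344011-152344090 on the minus strand, Chac1 at chr2:119351013-119351092 on the plus strand, Ppp1r15a at chr7:45526237-45526316 on the minus strand and Nupr1 at chr7:126625537-126625616 on the minus strand. The match is 15 to 22 bases after the start in Trib3, and it is 193 to 186 bases before it in Chac1, 12 to 5 bases before it in Ppp1r15a and 110 to 103 bases before it in Nupr1.
Trib3: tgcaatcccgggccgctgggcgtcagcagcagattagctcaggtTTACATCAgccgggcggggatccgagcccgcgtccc
Chac1: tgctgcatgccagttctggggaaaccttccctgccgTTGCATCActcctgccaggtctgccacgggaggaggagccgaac
Ppp1r15a: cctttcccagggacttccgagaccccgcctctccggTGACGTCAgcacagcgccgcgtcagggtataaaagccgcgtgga
Nupr1: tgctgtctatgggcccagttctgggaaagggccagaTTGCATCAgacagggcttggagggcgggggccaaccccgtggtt
A match of letters is a description of the sequence and does not show that a factor binds there. For these 4 genes the RefSeq start was set beside the start of the gene as deposited on mm10. They are the same base in Ppp1r15a. Along the gene, the RefSeq start lies 28 bases before the deposited start in Trib3, so that the Trib3 match falls before the deposited start. It lies 13 bases after the deposited start in Chac1 and 5391 bases after it in Nupr1, so that the Nupr1 window is inside the gene as deposited.

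Levels of different genes were set side by side per length of gene, as the deposited FPKM (fragments per kilobase of gene, scaled to depth). By the median over the 45 libraries, Atf4 was the most abundant at 105 FPKM. Ddit4 at 37.8 FPKM and Atf5 at 35.6 FPKM followed. The others had medians of 14.3 FPKM for Sesn2, 14.0 for Ddit3, 12.1 for Ppp1r15a, 10.2 for Chac1, 7.65 for Trib3, 6.88 for Cebpb and 3.57 for Nupr1. All other levels below are CPM (a count scaled to the depth of its library, with TMM factors over all 45 libraries), and they compare 1 gene between libraries. The 5 values of a group are given in the order of the replicate numbers. These numbers were taken to pair libraries only for 50 µM against vehicle at 48 h and for 10 µM against vehicle at 24 and 48 h.

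**Figure D1:**
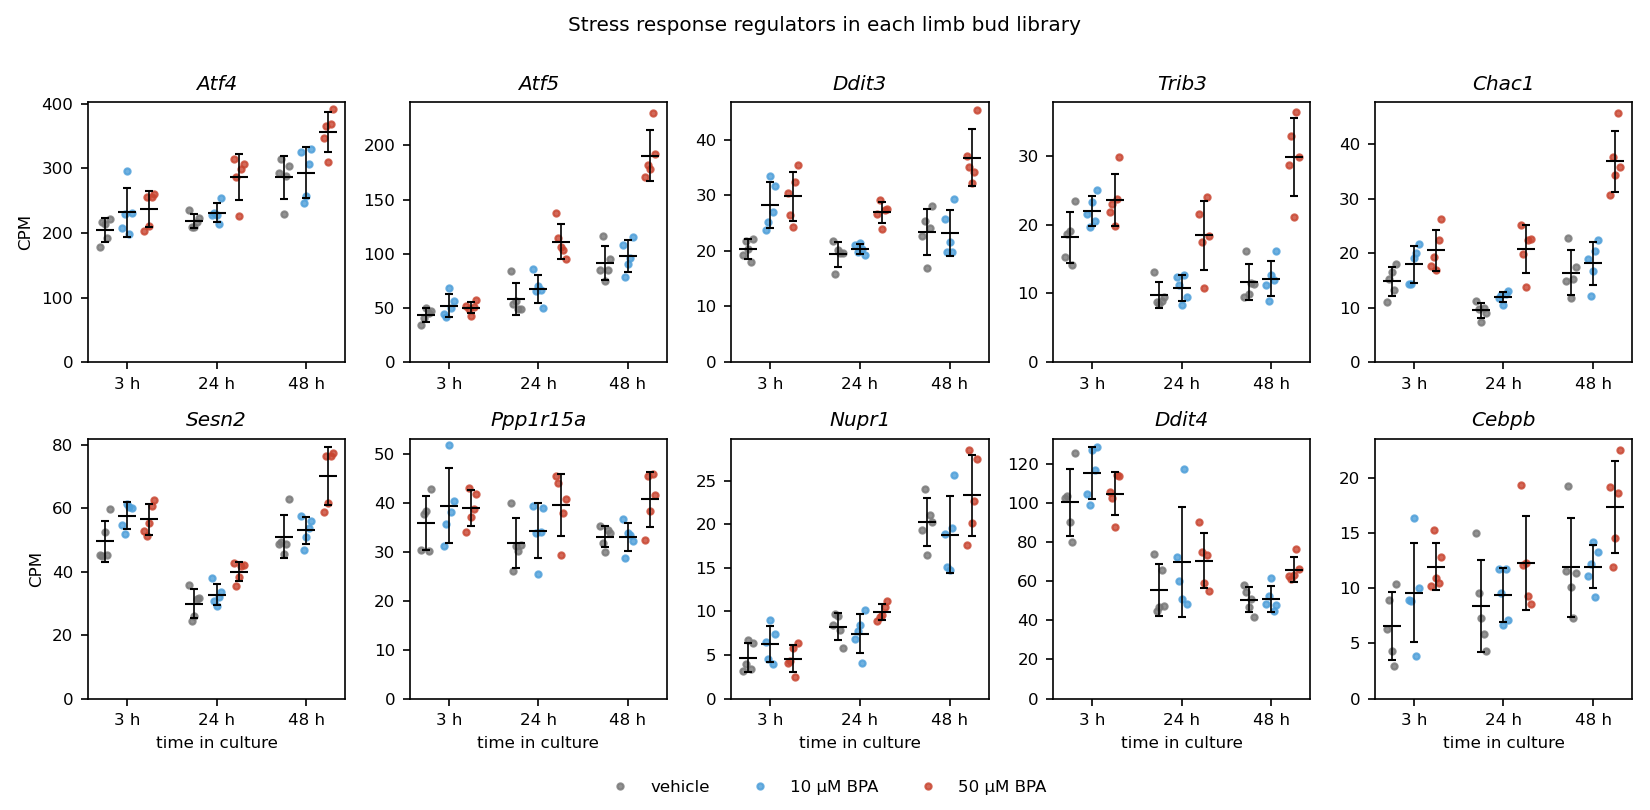
CPM of each of the 10 genes (y axis, from 0) in every library, by time in culture (x axis) and, within each time, vehicle, 10 µM BPA and 50 µM BPA from left to right. Points are libraries, and black bars give the mean ± SD of 5. For Atf5 and Chac1 the 50 µM libraries of 48 h, at 171 to 230.1 CPM and 30.6 to 45.8 CPM, lie above those of every other group.

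Part of the set was called higher with 50 µM BPA than with vehicle of the same time, from 1 gene at 3 h to 7 at 48 h. The 10 genes were chosen with earlier results of these data known. Their counts beside the shares of all genes, here and below, are therefore a description and no independent test of the set. A gene is said to have been called, to have risen or to have fallen when its adjusted p in the edgeR quasi-likelihood test with Benjamini-Hochberg adjustment over all genes tested was under 0.05. At 3 h, 1 of the 10 genes was called, Ddit3, against 1.41% of all 16988 genes tested, called in either direction. At 24 h, 6 of 10 rose (Atf4, Atf5, Ddit3, Trib3, Chac1 and Sesn2), against 3.47% of 16841 genes. At 48 h, 7 of 10 rose, the same 6 and Ddit4, against 9.18% of 16732 genes. These fits leave out the replicate numbers, although the numbers were taken to pair the libraries of 48 h. With them as a block, 8 of 10 and 2598 of the 16732 genes were called at 48 h. At an unadjusted p under 0.05 by edgeR without the block, the counts at 3, 24 and 48 h were 7, 7 and 9 of the 10. Over all genes tested they were 2155, 2652 and 3830. The log2 fold change was above 0 for 9 of the 10 at 3 h and for all 10 at 24 and 48 h. None of the 10 was called lower at any of the 3 times, and the median log2 fold change of the 10 was 0.23 at 3 h, 0.44 at 24 h and 0.49 at 48 h, where the medians over all genes tested were -0.0021, -0.00090 and -0.0049. The ranges of the 50 µM and vehicle libraries did not overlap for 1 gene at 3 h, 3 at 24 h and 5 at 48 h, each of them higher with 50 µM. Over the 16906 genes with a mean of at least 0.5 CPM, the ranges did not overlap in either direction for 4.11%, 4.93% and 8.94%, so the 1 of 10 at 3 h is near that share.

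**Figure D2:**
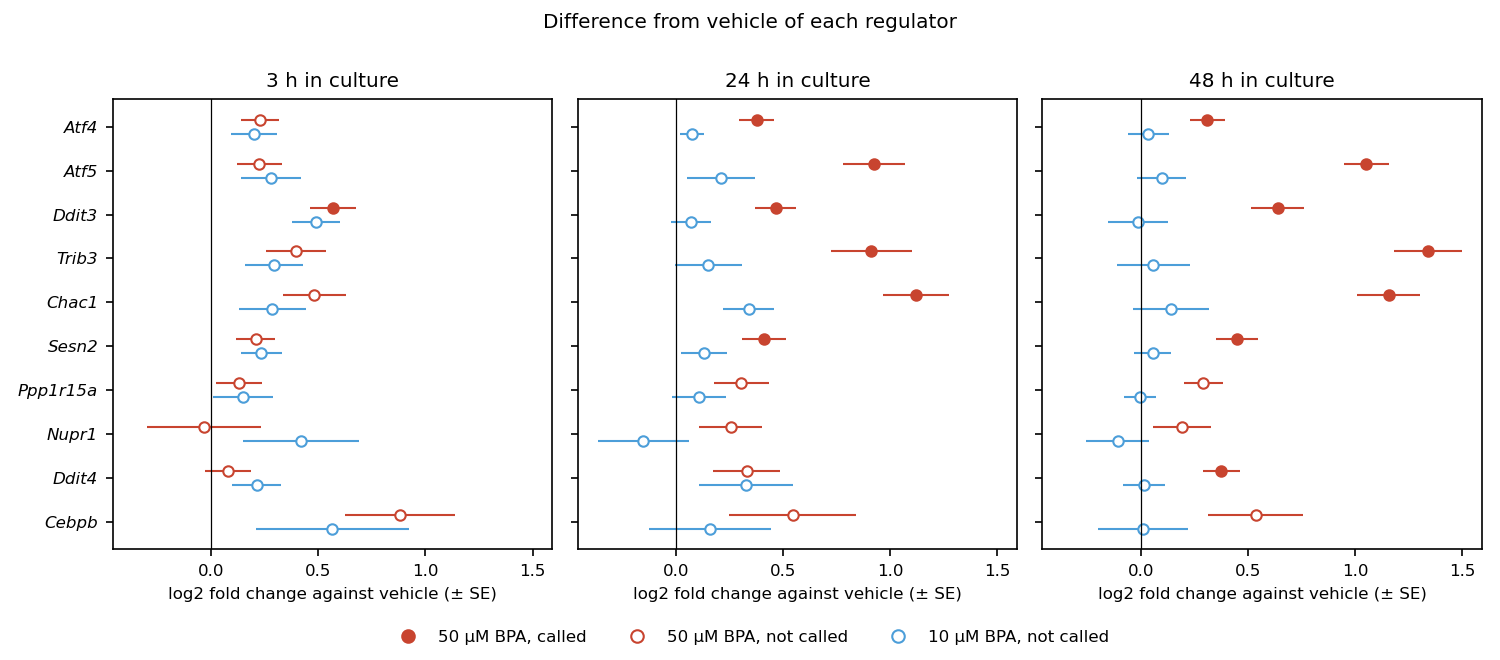
Log2 fold change against vehicle (x axis, ± SE from the edgeR test) of each gene (y axis) at 3, 24 and 48 h, for 50 µM BPA (red) and 10 µM BPA (blue, drawn just below). Filled points passed the adjusted p of 0.05: 1, 6 and 7 of 10 genes at 50 µM and 0 at 10 µM at each time.

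Atf4 encodes the central transcription factor of the response. At 24 h it had 314, 287, 226, 299 and 307 CPM in the 50 µM libraries, against 236, 209.8, 209.9, 217 and 222 CPM in the vehicle libraries. After 48 h it had 347, 366, 309.5, 369 and 392 CPM in the 50 µM libraries, against 293, 315, 229.8, 288 and 303 CPM in the vehicle libraries. Replicate 3 of 50 µM was the lowest of its group at both times and lay within the vehicle range. At 48 h, where the replicate numbers were taken to pair the libraries, vehicle replicate 3 was also the lowest of its group. There, each 50 µM library was above the vehicle library of the same number. This was so at 24 h too, where the numbers were not taken to pair the libraries. The log2 fold change was 0.38 ± 0.082 (SE, adjusted p = 0.0192 by edgeR) at 24 h and 0.31 ± 0.083 (adjusted p = 0.0269) at 48 h. The call at 24 h was lost without 50 µM replicate 4 (adjusted p = 0.0560), without 50 µM replicate 5 (0.0534) or without vehicle replicate 3 (0.0562). The call at 48 h was lost without 50 µM replicate 2 (adjusted p = 0.0503), 4 (0.0663) or 5 (0.0762). At 3 h the log2 fold change was 0.23 ± 0.090 (adjusted p = 0.280), which did not pass.

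Atf5 encodes a related transcription factor whose mRNA, like that of Atf4, is translated more when eIF2 is phosphorylated. It had 138, 115, 106, 103 and 94.8 CPM in the 50 µM libraries of 24 h, against 84.1, 53.9, 56.0, 49.1 and 48.6 CPM in the vehicle libraries. In the 48 h cultures it had 171, 182, 178, 230.1 and 192 CPM with 50 µM, against 84.9, 116, 74.8, 85.5 and 95.3 CPM with vehicle. At both times every 50 µM library lay above every vehicle library. The fitted log2 fold change was 0.92 ± 0.14 (adjusted p = 0.00261 by edgeR) at 24 h and 1.05 ± 0.11 (adjusted p = 2.87e-05) at 48 h. At 3 h it was 0.22 ± 0.11 (adjusted p = 0.394), with 42.4 to 57.0 CPM in 50 µM libraries and 33.8 to 50.0 CPM in vehicle libraries.

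Ddit3 encodes CHOP, a transcription factor of the C/EBP family that is induced by stress and known for promoting cell death. It was the only one of the 10 called at all 3 times. At 3 h it had 30.3, 26.4, 24.3, 32.3 and 35.5 CPM in the 50 µM libraries, against 19.3, 21.8, 20.3, 17.9 and 22.1 CPM in the vehicle libraries. At 24 h the values were 26.6, 29.2, 24.0, 27.4 and 27.4 CPM with 50 µM, against 21.7, 15.8, 20.2, 19.5 and 19.5 CPM with vehicle. At 48 h they were 37.1, 35.02, 32.2, 34.2 and 45.2 CPM with 50 µM, against 22.6, 25.4, 16.9, 24.1 and 28.1 CPM with vehicle. The groups did not overlap at any of the 3 times. Its log2 fold change was 0.57 ± 0.11 at 3 h, 0.46 ± 0.097 at 24 h and 0.64 ± 0.12 at 48 h, with adjusted p of 0.0114, 0.0159 and 0.00366 by edgeR.

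Cebpb encodes C/EBPβ, which can pair with ATF4 and with CHOP. At 3 h it had 10.2, 15.3, 10.9, 10.5 and 12.9 CPM in the 50 µM libraries, against 6.29, 8.89, 4.34, 2.94 and 10.4 CPM in the vehicle libraries. Its log2 fold change was the largest of the 10 at 3 h, 0.88 ± 0.26, yet it did not pass (adjusted p = 0.112 by edgeR). Without vehicle replicate 5 it passed (adjusted p = 0.0380). At 24 h it gave 0.54 ± 0.30 (adjusted p = 0.404), and at 48 h it gave 0.54 ± 0.22 (adjusted p = 0.157), where it passed without vehicle replicate 2 (adjusted p = 0.0168). Within groups, the log2 level of Cebpb had a Pearson r of 0.42 with epidermal markers, -0.42 with skeletal muscle markers and 0.35 with erythroid markers, over 45 libraries that share depth scaling and tissue make-up. The part of these cell types in the Cebpb values was not tested beyond a fit with the epidermal marker level as a covariate at 24 and 48 h, in which Cebpb was again not called.

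Trib3 encodes a pseudokinase that is induced by ATF4 and CHOP and feeds back on ATF4. It had the largest change of the 10 at 48 h. At 24 h it had 21.6, 17.4, 10.8, 24.0 and 18.3 CPM in the 50 µM libraries, against 13.0, 8.78, 8.51, 8.84 and 9.43 CPM in the vehicle libraries. By 48 h it had 28.7, 32.9, 21.1, 36.4 and 29.8 CPM with 50 µM, against 9.46, 16.1, 9.96, 11.5 and 11.3 CPM with vehicle. The groups overlapped at 24 h through 50 µM replicate 3 and did not overlap at 48 h. The log2 fold change was 0.91 ± 0.19 (adjusted p = 0.0151 by edgeR) at 24 h and 1.34 ± 0.16 (adjusted p = 8.19e-05) at 48 h. At 3 h it was 0.40 ± 0.14 (adjusted p = 0.219), which did not pass.

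Ppp1r15a encodes GADD34, the stress-induced phosphatase subunit that removes the phosphate from eIF2. It was not called at any time in the edgeR fit. After 48 h it had 32.4, 45.6, 38.3, 45.8 and 41.7 CPM in the 50 µM libraries, against 35.3, 31.9, 30.0, 34.4 and 33.9 CPM in the vehicle libraries. The groups overlapped through 50 µM replicate 1, and without it Ppp1r15a passed (adjusted p = 0.00938). The fitted log2 fold change was 0.29 ± 0.090 (adjusted p = 0.0568). With the replicate number as a block, which pairs the libraries of this comparison, it was called (adjusted p = 0.0250), and the calls over all genes numbered 2598, against 1536 without the block. In the authors' deposited table, its adjusted p was 0.0243. At 3 and 24 h its log2 fold changes were 0.13 ± 0.11 (adjusted p = 0.687) and 0.30 ± 0.13 (adjusted p = 0.251).

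Chac1 encodes an enzyme that degrades glutathione and is a target of ATF4 and CHOP. At 24 h it had 25.2, 19.8, 13.8, 22.4 and 22.6 CPM in the 50 µM libraries, against 11.2, 9.83, 7.40, 9.93 and 9.07 CPM in the vehicle libraries. In the 48 h cultures it had 30.6, 37.6, 34.3, 45.8 and 35.9 CPM with 50 µM, against 14.8, 22.7, 11.7, 15.3 and 17.4 CPM with vehicle. Every 50 µM library was above every vehicle library at both times. Its log2 fold change was 1.12 ± 0.16 (adjusted p = 0.00108 by edgeR) at 24 h, the largest of the 10 at that time, and 1.16 ± 0.15 (adjusted p = 1.59e-04) at 48 h. At 3 h it was 0.48 ± 0.15 (adjusted p = 0.134), with 17.0 to 26.2 CPM in 50 µM libraries and 11.1 to 18.0 CPM in vehicle libraries.

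Sesn2 encodes sestrin 2, which senses leucine and restrains the growth kinase mTORC1. At 24 h it had 42.6, 35.5, 38.3, 41.6 and 42.0 CPM in the 50 µM libraries, against 35.9, 24.5, 26.0, 31.4 and 31.6 CPM in the vehicle libraries. By 48 h it had 58.9, 76.5, 61.5, 76.3 and 77.2 CPM with 50 µM, against 48.7, 49.3, 45.5, 48.8 and 62.8 CPM with vehicle. The groups overlapped at both times. The log2 fold change was 0.41 ± 0.10 (adjusted p = 0.0430 by edgeR) at 24 h and 0.45 ± 0.097 (adjusted p = 0.00834) at 48 h. The call at 24 h was lost when any of 8 libraries was left out, which is every library of the 2 groups other than 50 µM replicate 2 and vehicle replicate 1, with an adjusted p of up to 0.118. At 3 h the log2 fold change was 0.21 ± 0.093 (adjusted p = 0.362).

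Ddit4 encodes REDD1, another restraint on mTORC1, which is also induced by glucocorticoids and by low oxygen. After 48 h it had 62.5, 61.1, 63.4, 76.6 and 66.1 CPM in the 50 µM libraries, against 58.3, 54.3, 47.0, 51.1 and 41.8 CPM in the vehicle libraries, and the groups did not overlap. The fitted log2 fold change was 0.38 ± 0.087 (adjusted p = 0.0123 by edgeR). In a fit of all 45 libraries together the call was lost (adjusted p = 0.182). At 24 h the libraries ranged over 54.9 to 90.3 CPM with 50 µM and 44.6 to 73.9 CPM with vehicle, and at 3 h over 87.5 to 115 CPM with 50 µM and 79.97 to 125 CPM with vehicle. The log2 fold changes there were 0.33 ± 0.16 (adjusted p = 0.327) and 0.078 ± 0.11 (adjusted p = 0.830), which did not pass.

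Nupr1 encodes a small stress-induced chromatin protein and had the lowest median level of the 10. It was not called at any time. At 48 h it ranged over 17.7 to 28.5 CPM with 50 µM and 16.5 to 24.1 CPM with vehicle, with a log2 fold change of 0.19 ± 0.13 (adjusted p = 0.439 by edgeR). At 24 h the log2 fold change was 0.26 ± 0.15 (adjusted p = 0.435), and at 3 h it was -0.035 ± 0.27 (adjusted p = 0.976). Of the 3 genes with the composite element in the promoter window, Trib3 and Chac1 had the 2 largest log2 fold changes at 48 h, while Nupr1 had the smallest.

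With 10 µM BPA, none of the 10 genes was called by edgeR at any time. Over all genes, the share called was 0% of 17009 at 3 h, 0% of 17060 at 24 h and 0.00591% of 16925 at 48 h. At an unadjusted p under 0.05 there were 974, 786 and 980 genes, and 3, 1 and 0 of the 10. DESeq2 called 17, 17 and 53 genes, and 1, 0 and 0 of the 10. The 1 gene was Ddit3 at 3 h, with 23.7, 25.3, 33.4, 26.9 and 31.7 CPM in the 10 µM libraries, against 19.3, 21.8, 20.3, 17.9 and 22.1 CPM in the vehicle libraries. Those groups did not overlap, as was so for 1.08% of the 16906 genes. Its log2 fold change was 0.49 ± 0.11, with an adjusted p of 0.665 by edgeR, 0.0488 by DESeq2 and 0.0982 in the authors' deposited table. With the replicate block, taken to pair the libraries at 24 and 48 h, 95 and 37 genes were called, with none of the 10 among them. At 48 h only 2 of 5 libraries correlated best with the library of their own number. The median log2 fold change of the 10 was 0.28 at 3 h, 0.14 at 24 h and 0.025 at 48 h, against 0.0075, 0.00011 and -0.00043 over all genes tested. At 48 h the values of the 10 lay between -0.11 and 0.14.

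Set against 10 µM, 50 µM gave higher levels of part of the set at 24 and 48 h. These contrasts came from 1 fit of all 45 libraries with 19247 genes tested, and they share the 50 µM libraries with the comparisons above. At 3 h, 0 of the 10 were called by edgeR, against 0.623% of all genes, with 0 of the 10 under an unadjusted p of 0.05 and 0 called by DESeq2. At 24 h, 3 of 10 rose, against 0.8% of all genes. Atf5 averaged 111 ± 16.3 CPM with 50 µM and 67.6 ± 12.7 CPM with 10 µM (SD, n = 5 each), a log2 fold change of 0.72 ± 0.15 (adjusted p = 0.00695 by edgeR). Chac1 gave 0.79 ± 0.17 (adjusted p = 0.0108) and Trib3 gave 0.77 ± 0.18 (adjusted p = 0.0216). Trib3 lost its call in a fit of only the 2 groups (adjusted p = 0.0657), and without 10 µM replicate 3 (0.0978) or 5 (0.0748) or 50 µM replicate 1 (0.0675), 4 (0.107) or 5 (0.0503).

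At 48 h, 5 of the 10 were higher with 50 than with 10 µM, against 3.14% of all genes. Trib3 averaged 29.8 ± 5.69 CPM with 50 µM and 12.2 ± 2.60 CPM with 10 µM (SD, n = 5 each), a log2 fold change of 1.29 ± 0.18 (adjusted p = 1.94e-06 by edgeR). Chac1 gave 1.03 ± 0.16 (adjusted p = 2.87e-05) and Atf5 gave 0.96 ± 0.14 (adjusted p = 1.12e-05). Ddit3 gave 0.66 ± 0.12 (adjusted p = 2.84e-04) and Sesn2 gave 0.40 ± 0.099 (adjusted p = 0.0124). For all 5 the libraries of the doses did not overlap, against 4.85% of the 16906 genes with a mean of at least 0.5 CPM. The Sesn2 call was lost without 50 µM replicate 5 (adjusted p = 0.0505). Atf4 did not pass at 24 h (0.31 ± 0.10, adjusted p = 0.183) or at 48 h (0.28 ± 0.10, adjusted p = 0.145).

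Whether the response to 50 µM differed between times was tested as an interaction in the same fit. From 3 to 48 h the response of Atf5 was larger by 0.83 ± 0.21 on the log2 scale (adjusted p = 0.0179 by edgeR), and that of Trib3 by 0.95 ± 0.25 (adjusted p = 0.0261). These 2 of 10 compare with 1.95% of all genes. The Trib3 call was lost without replicate 5 of vehicle at 3 h (adjusted p = 0.0718), replicate 3 of 50 µM at 3 h (0.0504), replicate 1 or 3 of vehicle at 48 h (0.0566 and 0.0579) or replicate 4 of 50 µM at 48 h (0.0671). Chac1 showed a difference of 0.68 ± 0.23 (adjusted p = 0.142), which did not pass, and passed without replicate 2 of vehicle at 48 h (0.0424). Between 24 and 3 h none of the 10 passed, against 0.634% of all genes, with 3 of the 10 under an unadjusted p of 0.05 and 0 by DESeq2. Atf5 came nearest there, with 0.69 ± 0.21 (adjusted p = 0.125), and passed without replicate 1 of vehicle at 24 h (0.0123). Between 48 and 24 h none of the 10 passed, against 0% of all genes, where 645 genes and 0 of the 10 were under an unadjusted p of 0.05 and DESeq2 called 4 genes and 0 of the 10.

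Time in culture also moved part of the set in vehicle, in both directions. At 24 h relative to 3 h, 2 of the 10 were higher and 4 were lower, against 30% of all 17081 genes called. Trib3 had 13.0, 8.78, 8.51, 8.84 and 9.43 CPM at 24 h, against 15.4, 18.6, 19.1, 14.1 and 23.5 CPM at 3 h, and fell by 0.85 on the log2 scale (adjusted p = 9.94e-04 by edgeR). Ddit4 fell by 0.80 (adjusted p = 8.72e-04), Sesn2 fell by 0.68 (adjusted p = 4.46e-04) and Chac1 fell by 0.60 (adjusted p = 0.00741). Nupr1 rose by 0.85 ± 0.23 (adjusted p = 0.0127) and Atf5 by 0.48 ± 0.15 (adjusted p = 0.0257). The Atf5 call was lost without vehicle replicate 1 of 3 h (adjusted p = 0.0696) or replicate 2 (0.0542). The 24 h libraries of Trib3, Sesn2 and Ddit4 all lay below those of 3 h, and the 3 of 10 compare with 22.6% of 16906 genes without overlap in either direction. Of 20 genes of amino acid supply known as ATF4 targets, 13 were called lower and 1 higher between the same groups. Among 13 aminoacyl-tRNA synthetases, 8 were called lower and 0 higher. Among 19 genes of the other arms of the unfolded protein response, 10 were called higher and 0 lower. Markers of cell types moved between the same groups as well. Of the markers measured, 7 of 7 of skeletal muscle, 9 of 10 of macrophages, 6 of 7 of cartilage and 6 of 7 of osteoblasts were called higher at 24 h, and 7 of 7 of endothelium, 8 of 9 of limb mesenchyme and 4 of 7 of erythroid cells lower. Their part in the values of the 10 genes was not tested.

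At 48 h relative to 24 h in vehicle, 5 of the 10 rose, against 8.45% of all 16940 genes called. Nupr1 had 19.4, 24.1, 16.5, 21.1 and 20.2 CPM at 48 h, against 8.47, 9.72, 9.48, 7.87 and 5.81 CPM at 24 h, a log2 fold change of 1.28 ± 0.15 (adjusted p = 1.04e-04 by edgeR). Chac1 gave 0.78 ± 0.17 (adjusted p = 0.00819), Sesn2 0.76 ± 0.11 (adjusted p = 6.17e-04), Atf5 0.63 ± 0.15 (adjusted p = 0.0164) and Atf4 0.37 ± 0.078 (adjusted p = 0.00734). For Chac1, Sesn2 and Nupr1 the libraries of the 2 times did not overlap, against 8.25% of 16906 genes. Of the 20 genes of amino acid supply, 3 were called higher and 0 lower between the same groups, with a median log2 fold change of 0.11. Of the 13 aminoacyl-tRNA synthetases, 0 were called in either direction. Among 17 other ATF4 and CHOP targets, 4 were called higher and 1 lower, and among the 19 genes of the other arms of the unfolded protein response, 2 higher and 0 lower. Further lists moved as well, with 12 of 14 p53 targets and 13 of 20 immediate early genes called higher at 48 h. So were 5 of 6 osteoblast, 5 of 7 cartilage, 3 of 7 skeletal muscle and 4 of 10 macrophage markers, while 5 of 9 limb mesenchyme and 5 of 6 erythroid markers were lower. Osteoblast markers took 0.645 to 0.892% of counts at 48 h, against 0.311 to 0.356% at 24 h, and Nupr1 had a Pearson r of 0.59 with them within groups over the 45 libraries. Both values rest on the summed CPM of the list, which is mostly Col1a1. Its median over the 45 libraries was 2825 CPM, and Ibsp came next with 143 CPM. The part of these shifts in the values of the 10 genes was not tested. Both vehicle comparisons share the 24 h libraries.

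Ordered by group mean, the 50 µM libraries of 48 h were highest for 9 of the 10 genes. For Atf5 and Chac1 they did not overlap with the next group, and for the other 7 they did. Ddit4 had another order, with 10 µM at 3 h highest (115 ± 13.2 CPM, SD, n = 5) and vehicle at 48 h lowest (50.5 ± 6.40 CPM). Its neighbouring groups in that order all overlapped. Nupr1 was ordered by time, with all 3 groups of 48 h above all 3 of 24 h and those above the 3 of 3 h, and a gap without overlap between 10 µM at 48 h (18.8 ± 4.39 CPM) and 50 µM at 24 h (9.94 ± 0.920 CPM). Sesn2 had such a gap between vehicle at 3 h (49.5 ± 6.52 CPM) and 50 µM at 24 h (40.0 ± 3.05 CPM). Trib3 averaged 18.1 ± 3.68 and 18.4 ± 5.02 CPM in the same groups. The calls of Sesn2 and Trib3 with 50 µM at 24 h are thus against vehicle of 24 h, in which both were lower than at 3 h.

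Libraries of the same group also differed together. Over the 45 libraries, with each group's mean taken off, 44 of the 45 pairs of genes had a Pearson r above 0 and 21 had one above 0.5, with a median of 0.478. The closest pair was Trib3 and Chac1 at 0.78, followed by Atf4 and Chac1 at 0.72, Atf4 and Ppp1r15a at 0.68 and Atf4 and Ddit3 at 0.67. Nupr1 and Ddit4 formed the only pair below 0, at -0.27. The points share depth scaling and tissue make-up, so these values are given as a description.

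**Figure D3:**
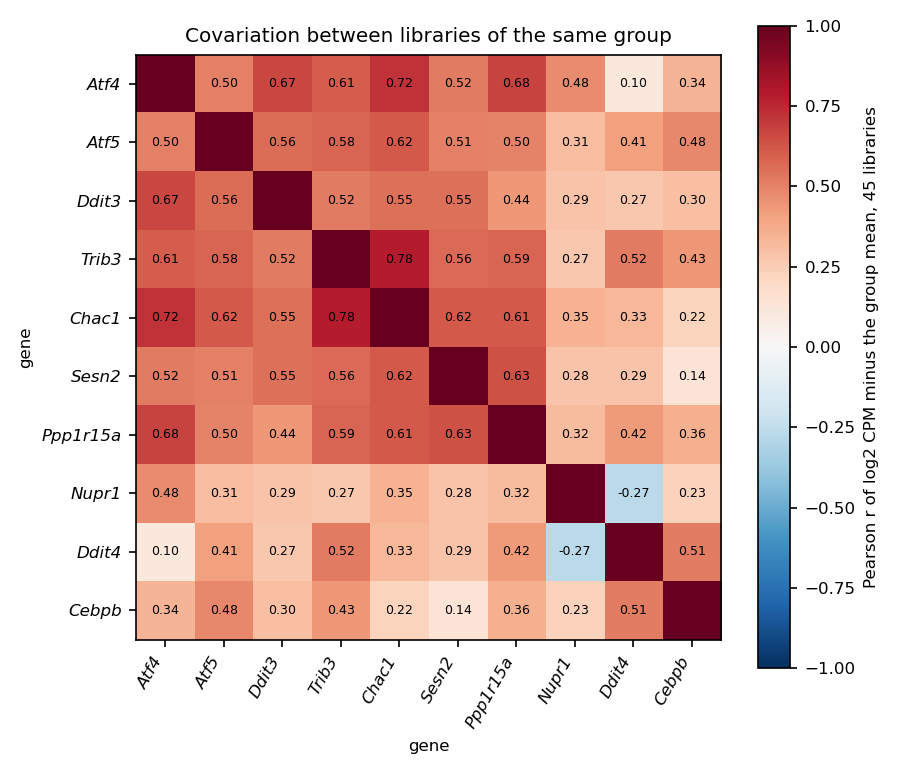
Pearson r between the 10 genes (both axes) of log2 CPM minus the group mean over 45 libraries, with the value in each cell and the colour scale from -1 to 1. Trib3 and Chac1 reach 0.78, and Nupr1 and Ddit4 stand at -0.27.

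The genes whose pattern was most like 4 of the set were sought among 13395 genes with a mean count of at least 50, by the Pearson r of log2 CPM minus the vehicle mean of the same time over 45 libraries. Nearest to Atf4 were Alg5 (r = 0.856), Mthfd2 (0.833) and Eif4ebp1 (0.821). Nearest to Ddit3 were Eif4ebp1 (0.823), Cd81 (0.806) and Slc3a2 (0.799). Trib3 was nearest to Slc3a2 (0.917), Mthfd2 (0.869) and Slc7a5 (0.869), and Chac1 to Mthfd2 (0.948), Slc3a2 (0.936) and Adm2 (0.899). Mthfd2 is a mitochondrial folate enzyme, and Slc3a2 and Slc7a5 form an amino acid exchanger. These r hold the differences between doses as well as the scatter within groups. The libraries also share depth scaling and tissue make-up, and a common cause of the likeness was not tested.

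Other genes of the pathway were counted in lists beside the 10, lists chosen with earlier results of these data known. Over all genes tested, 1.41%, 3.47% and 9.18% were called in either direction with 50 µM at 3, 24 and 48 h. Of 20 genes of amino acid supply known as ATF4 targets, 4, 10 and 14 rose with 50 µM at 3, 24 and 48 h, and 0 fell, with median log2 fold changes of 0.29, 0.42 and 0.54. At 48 h Slc7a5 gave 0.91 ± 0.10, the cationic amino acid transporter Slc7a1 0.70 ± 0.073, Slc3a2 0.60 ± 0.068 and Cth, an enzyme of cysteine synthesis, 1.46 ± 0.19. Asparagine synthetase Asns gave 0.65 ± 0.090. Of 13 aminoacyl-tRNA synthetases, which load amino acids onto tRNA, 0, 3 and 9 rose, with 0.37 ± 0.062 for Aars and 0.39 ± 0.069 for Cars at 48 h. Of 17 other ATF4 and CHOP targets 1, 3 and 5 rose, among them at 48 h Vldlr (0.58 ± 0.087), Xpot (0.33 ± 0.052), Bbc3 (0.47 ± 0.088), Gdf15 (1.03 ± 0.26) and Eif4ebp1 (0.41 ± 0.10).

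Genes upstream of Atf4 and partners of its protein were counted against the 1.41%, 3.47% and 9.18% of all genes called at 3, 24 and 48 h. Of 18 eIF2 kinases, eIF2 and eIF2B subunits and their partners, 0, 0 and 2 rose, the 2 being Impact (0.27 ± 0.062) and the constitutive phosphatase subunit Ppp1r15b (0.23 ± 0.053), and the medians were 0.023, -0.020 and -0.017. Of 13 measured bZIP and C/EBP partners, 0, 2 and 1 rose, Jdp2 (0.63 ± 0.083 at 24 h, 0.47 ± 0.067 at 48 h) and Nfe2l1 (0.25 ± 0.062 at 24 h). Of 19 genes of the other arms of the unfolded protein response, 13, 10 and 11 rose, so that at 3 h this list held 13 calls while the 10 regulators held 1. The chaperone Hspa5 gave 0.58 ± 0.071, calreticulin Calr 0.55 ± 0.068 and Herpud1, of ER-associated degradation, 0.46 ± 0.066 at 3 h. Derl3 gave 1.83 ± 0.23 at 24 h. Whether the lists differ was not tested.

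Lists for other responses, and for the mTORC1 and AMPK axis of Ddit4 and Sesn2, held 0 to 2 calls each at a time, against the same shares of all genes. In lists this short, 1 call is already a larger share than that of all genes at 3 and 24 h. Of 7 measured glucocorticoid-responsive genes, 1 rose at each time, Sgk1 (0.53 ± 0.10 at 3 h). Of 12 hypoxia-responsive genes, Ankrd37 fell by 1.16 at 3 h and Slc2a1, a glucose transporter, rose by 0.61 ± 0.10 at 48 h. Of 14 p53 targets, Trp53inp1 rose at 24 h (0.35 ± 0.084) and 48 h (0.42 ± 0.10), and Cdkn1a fell by 0.35 at 24 h. Of 20 immediate early genes, Klf2 alone was called, and it fell by 0.84, 0.59 and 0.49 at 3, 24 and 48 h. Of 14 genes of the mTORC1 and AMPK axis, Sesn3 rose at 48 h (0.31 ± 0.065).

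**Figure D4:**
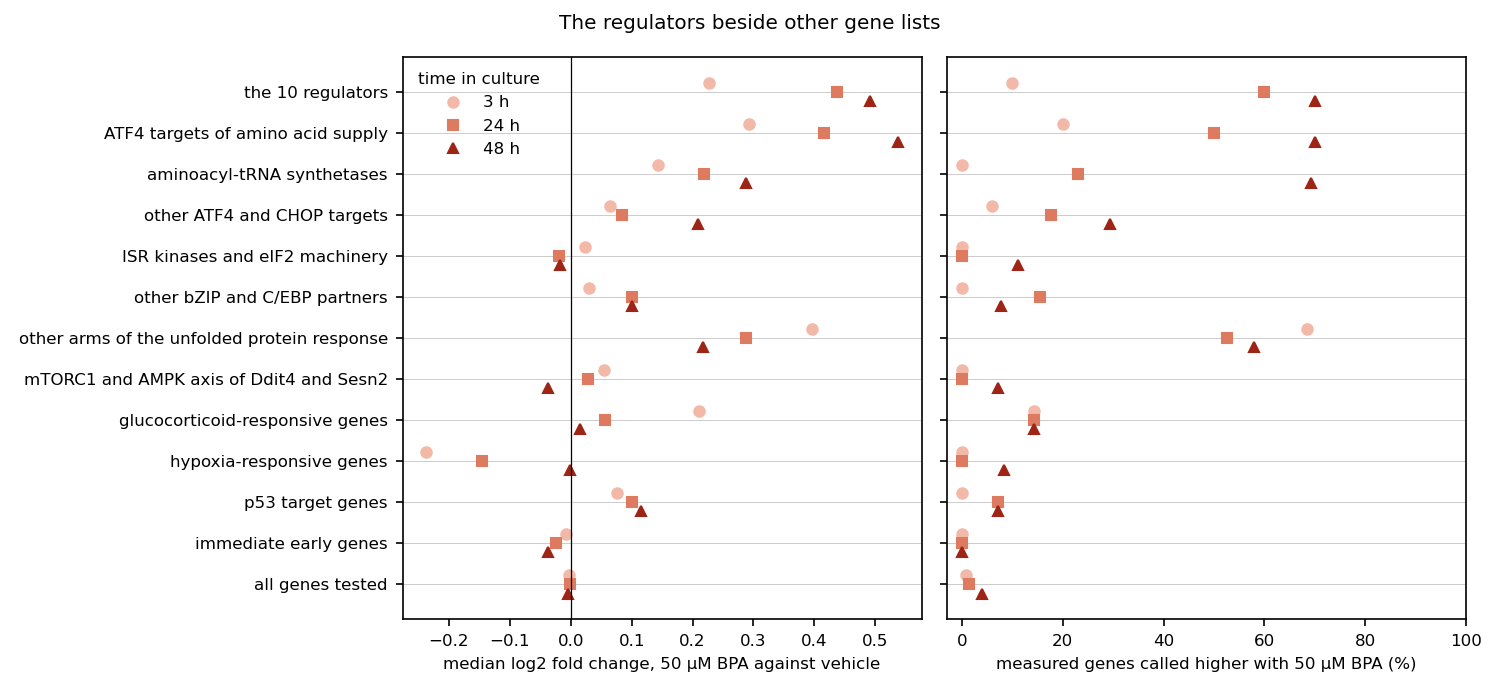
Median log2 fold change of 50 µM BPA against vehicle (left, x axis) and percentage of measured genes called higher (right, x axis) for the 10 regulators, 11 other lists and all genes tested (y axis), at 3, 24 and 48 h. Amino acid supply had 4, 10 and 14 of 20 genes called higher, and the other arms of the unfolded protein response lead at 3 h with 13 of 19.

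Markers of other cell types moved with 50 µM as well. Of 7 measured skeletal muscle markers, 5 fell at 24 h (Mylpf, Tnnt3, Myh3, Actn2 and Acta1) and 6 at 48 h, the same 5 and Ttn. At 48 h the 8 listed muscle markers together took 0.127 to 0.216% of counts in the 50 µM libraries, against 0.316 to 0.492% in the vehicle libraries, and at 24 h 0.149 to 0.213% against 0.196 to 0.377%. Tnnc2 was at 0 in part of the libraries. Of 10 macrophage markers, 3 fell at 24 h (Csf1r, C1qa and C1qb) and 5 at 48 h, the same 3 with C1qc and Lyz2. The 10 together took 0.0124 to 0.0236% of counts in the 50 µM libraries of 48 h, against 0.0239 to 0.0314% in the vehicle libraries, and at 24 h 0.0129 to 0.0136% against 0.0168 to 0.0195%. Of the osteoblast markers, Ibsp fell by 1.73 at 24 h and Col1a1 fell by 0.38 at 48 h. The osteoblast list, whose summed counts are mostly Col1a1, took 0.241 to 0.301% of counts in the 50 µM libraries of 24 h, against 0.311 to 0.356% in the vehicle libraries. At 48 h it took 0.448 to 0.735% against 0.645 to 0.892%. Of 7 cartilage markers, Sox9 rose at 48 h (0.23 ± 0.061). At 24 and 48 h no marker of limb mesenchyme, epidermis, endothelium or erythroid cells was called, and at 3 h, when Ddit3 was called, no marker of any of the 8 cell types was. Whether these shifts have a part in the values of the 10 genes was not tested, and in bulk samples fewer cells of a type and less RNA per cell cannot be told apart. Within groups over the 45 libraries, the Pearson r of the 10 genes lay between -0.42 and 0.13 with the muscle markers and between -0.14 and 0.55 with the macrophage markers, where Nupr1 had 0.55, Atf4 0.46 and Ddit3 0.40. With the osteoblast markers, mostly Col1a1 by counts, it lay between -0.12 (Ddit4) and 0.59 (Nupr1). With the limb mesenchyme markers it was below 0 for all 10, from -0.45 to -0.18.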

How the data were processed

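Sequencing was of mRNA selected on poly-T beads, starting with 1 µg of total RNA per sample, per the labels' protocols. The deposited counts are whole reads per gene, and the FPKM scale them by gene length and depth, per the file headers. CASAVA 1.8, STAR 2.5, HTSeq 0.6.1, DESeq2 2 and build mm10 are named without roles, per the submitters' processing notes. Strand use in library making and counting: not given in the sources used here. Reads of antisense or overlapping genes therefore cannot be told apart. The 9 deposited tables, each of 2 groups, also hold the authors' log2 fold changes, p-values and adjusted p-values, and normalised signal (count over a size factor), which was not used for tests. The 1345730 counts found in more than 1 table were all equal, and 24 symbols turned into dates were restored.

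Titles set the groups. They were followed where the treatment-length label of the 3 h libraries with 50 µM BPA reads 24 hours, and where the treatment text reads 3 hours for every sample. Replicates 1 and 2 of 10 µM at 48 h carry each other's number in their library codes, so the block was fitted with either numbering.

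Counts were tested with edgeR 4.0.16 in R 4.3.3 (quasi-likelihood, TMM, minimum count 10 and minimum total 15, Benjamini-Hochberg over all genes tested, threshold 0.05). Comparisons with vehicle and between vehicle times used their 10 libraries, and contrasts of doses and interactions used all 45. The standard error is the absolute log2 fold change over the square root of the F statistic. The scripts were tested on simulated data. Replicate pairs of a group differed beyond sampling noise (chi-square per degree of freedom 6.36 to 63.3), so each library counted once. PCR reads are not independent molecules. The lowest same-number correlation of deviations from group means was 0.287 for 50 µM against vehicle at 48 h, and 0.238 and 0.158 for 10 µM against vehicle at 24 and 48 h, all over 0.1, so the replicate numbers from the titles were taken to pair the libraries there. For 10 µM at 48 h, 2 of 5 libraries correlated best with their own number, against 5 of 5 for 10 µM at 24 h and 50 µM at 48 h.

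The members and lists were chosen with earlier results of these data known, as was the covariate of epidermal markers, first chosen in an earlier analysis of these data. The text names all 10 members and up to 4 called genes of smallest p per list at 50 µM. It also names any called gene of a list with 5 or fewer calls. Named as well are the 3 genes outside the 10 nearest in pattern to Atf4, Ddit3, Trib3 and Chac1. Asns was named beyond that rule after its values were seen. Alternatives were DESeq2 1.42.0, its size factors in edgeR, no filter or a stricter filter (1 CPM in 5 libraries), the replicate block, the covariate, all 45 libraries or only 2 groups per fit, and each library left out.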

Additional observations from a re-analysis of the deposited data

Results flagged for a closer look

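In 3 of the 90 groups of 5 values (10 genes in 9 groups), a library lay far from the other 4 by Dixon's test at its critical value of 0.71, and chance flags about 1 in 20 groups. Atf5 stood at 84.1 CPM in vehicle replicate 1 of 24 h, where the other 4 libraries had 48.6 to 56.0 CPM. Trib3 stood at 13.0 CPM in the same library, where the others had 8.51 to 9.43 CPM. Sesn2 stood at 62.8 CPM in vehicle replicate 5 of 48 h, where the others had 45.5 to 49.3 CPM.

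The response to 50 µM BPA differed between 48 and 3 h for Atf5, by 0.83 on the log2 scale (adjusted p = 0.0179 for the interaction in edgeR), and for Trib3, by 0.95 (adjusted p = 0.0261). The response itself was 1.05 ± 0.11 at 48 h and 0.22 ± 0.11 at 3 h for Atf5, and 1.34 ± 0.16 at 48 h and 0.40 ± 0.14 at 3 h for Trib3.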

How the results depend on the processing

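Of 2600 values recomputed for the 10 genes, none called in either fit changed sign. Signs of uncalled values changed in 90, all at log2 sizes of up to 0.25 and 89 of them on leaving out 1 library. An outcome is a gene in a comparison, called or not, and most outcomes were not called in either fit. DESeq2 left 138 of 140 outcomes as they were, its size factors 140, no filter 138 and the stricter filter 139. The number of the 10 called at 50 µM and 3 h was 2 with no filter on low counts (Cebpb, adjusted p = 0.0103) and 3 with the replicate block (Chac1, 0.0494, and Cebpb, 0.0156). At 10 µM and 3 h it was 1 with DESeq2. On leaving out 1 library it was 1 to 2 at 50 µM and 3 h, 4 to 6 at 24 h and 6 to 8 at 48 h. For the interaction it was 0 to 1 between 24 and 3 h and 1 to 3 between 48 and 3 h.

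The replicate block left 134 of 140 outcomes, called or not, as they were. Besides those above, it added Ddit4 (0.0185) and Cebpb (0.0100) at 50 µM and 24 h, and Atf5 lost its call in vehicle at 24 against 3 h (0.0670). The exchanged numbering of the library codes changed 0 of 20 outcomes. Ppp1r15a at 50 µM and 48 h also passed with no filter (0.0387), the stricter filter (0.0482), DESeq2 (0.0226) and the epidermal covariate (0.0438). For 50 against 10 µM, fits of only 2 groups added Ddit3 at 24 h (0.0242) and Ddit4 at 48 h (0.0281). The cause of these changes was not tested.

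Over all genes, counts moved more. At 50 µM and 3 h 239 calls became 594 with DESeq2 and 468 in the fit of 45 libraries, and 141 on leaving out 1 library. At 24 h 585 became 1008 with DESeq2, 1180 with the block, 888 in the fit of 45 libraries and 345 on leaving out 1 library, and at 48 h 1536 became 2598 with the block. At 10 µM, 0 became 17 with DESeq2, 12 in the fit of 45 libraries and up to 5 on leaving out 1 library at 3 h. At 24 h 0 became 17 with DESeq2, 95 with the block, 3 with no filter, 6 with the covariate and 4 in the fit of 45 libraries. At 48 h 1 became 53 with DESeq2, 37 with the block, 22 with no filter, 58 with the codes' numbering, 17 with the covariate and 20 in the fit of 45 libraries. For 50 against 10 µM at 3 h 120 became 186 with DESeq2, 21 in fits of only 2 groups and 73 on leaving out 1 library. At 24 h 154 became 259 with DESeq2 and 65 on leaving out 1 library, and at 48 h 605 became 388. The interaction between 24 and 3 h had 122 calls, against 214 with DESeq2 and 183 with the block, and that between 48 and 24 h had 0, against 4 with DESeq2 and up to 2 on leaving out 1 library. Counting error was not separated from other scatter, and the lowest counts in a library were 56 reads for Nupr1 and 59 for Cebpb.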
